A study of Drosophila melanogaster with 6 samples.

Results

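The genes described here encode the proteins of the mitochondrial ribosome of Drosophila melanogaster. Members were taken by name, as the genes whose symbol in the array's platform annotation starts with mRpL (large subunit) or mRpS (small subunit) and that have a probe set of their own. A gene with several such probe sets is represented by the brightest of them. This gave 69 genes out of 11982 gene rows, 44 of the large and 25 of the small subunit. Of the 73 genes with such a symbol in a RefSeq gene table (assembly Release 6 plus ISO1 MT), mRpS10 and mRpL53 share their probe sets with a neighbouring gene and were left out, and mRpL34 and mRpL37 are not analysed here.

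RNA came from whole male larvae in the third larval instar and was measured on 6 one-colour Affymetrix arrays. The mutant group has the genotype yw/Yy+;msl21/msl21, so that both copies of msl2 carry an allele induced by EMS. Controls, called wt in the sample titles, are yw/Yy+;msl21/+, with 1 copy of that allele over a wild-type one. Both groups therefore share the marked X chromosome, the Y chromosome carrying y+ and at least 1 mutant copy of msl2, so the comparison is with heterozygotes and not with wild type. Each group has 3 RNA preparations made independently, and a pool held 50 larvae or, if they were small, more.

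Mitochondria hold a small genome that encodes a few proteins of the respiratory chain, and they translate these on ribosomes of their own. The RNAs of this ribosome come from the mitochondrial genome, while its proteins are encoded in the nucleus, made in the cytoplasm and imported. The small subunit reads the messenger and the large subunit joins the amino acids, so genes on the X and on all the large autosomes contribute to 1 particle. MSL2 is a subunit of the dosage compensation complex, known for coating the male X and for boosting transcription there. The series asks whether X-linked and autosomal genes need MSL2, and the mitochondrial ribosome holds both kinds.

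All values are log2 expression values after RMA, which makes the arrays' overall distributions alike, so every difference is relative to the other genes. The 69 members had mean values between 7.84 and 10.64, and all 69 lay in the brighter 50% of gene rows (the median of all rows was 6.99). Probe sets differ in how strongly they bind, so signals do not tell which of different genes has more transcript. The mutant arrays varied more than the control arrays, with a median SD over members of 0.28 in mutants and 0.08 in controls. It was 0.31 and 0.07 for autosomal members, and 0.15 and 0.11 for X-linked members. Over all gene rows it was 0.28 and 0.15, so the spread among mutants is not particular to the members. The mRNA of msl-2 itself was 5.11 ± 0.34 in mutants and 5.06 ± 0.17 in controls (SD, n = 3 each). That probe set does not check the genotype, since an EMS allele need not alter the amount of transcript.

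The 11 X-linked members had the lowest mutant values relative to control of the whole ribosome, and all 58 autosomal members lay nearer to 0. The median log2 change (mutant minus control) was -0.70 for the X-linked members, a mutant to control ratio of 0.614, and -0.15 for the autosomal members. The X-linked changes ran between -0.84 and -0.47 and the autosomal changes between -0.39 and 0.18, so the ranges did not meet. Over all members 63 of 69 changes were below 0, against 49.4% of all gene rows. In all 11 X-linked members each mutant array lay below each control array. No member passed the test over all gene rows (limma, Benjamini-Hochberg adjusted p under 0.05), which called 2 genes lower, or 0.0167% of 11982, and 0 higher (0%). At an unadjusted limma p under 0.05, 0 members were higher. All 11 X-linked members, and 0 of the 58 autosomal ones, were lower at an unadjusted limma p under 0.05, against 4.66% of all gene rows, 24.4% of the X-linked rows and 3.33% of the autosomal rows in the brighter 50%. The plot of the change of every member shows the X-linked genes at one end of the order.

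**Figure D1:**
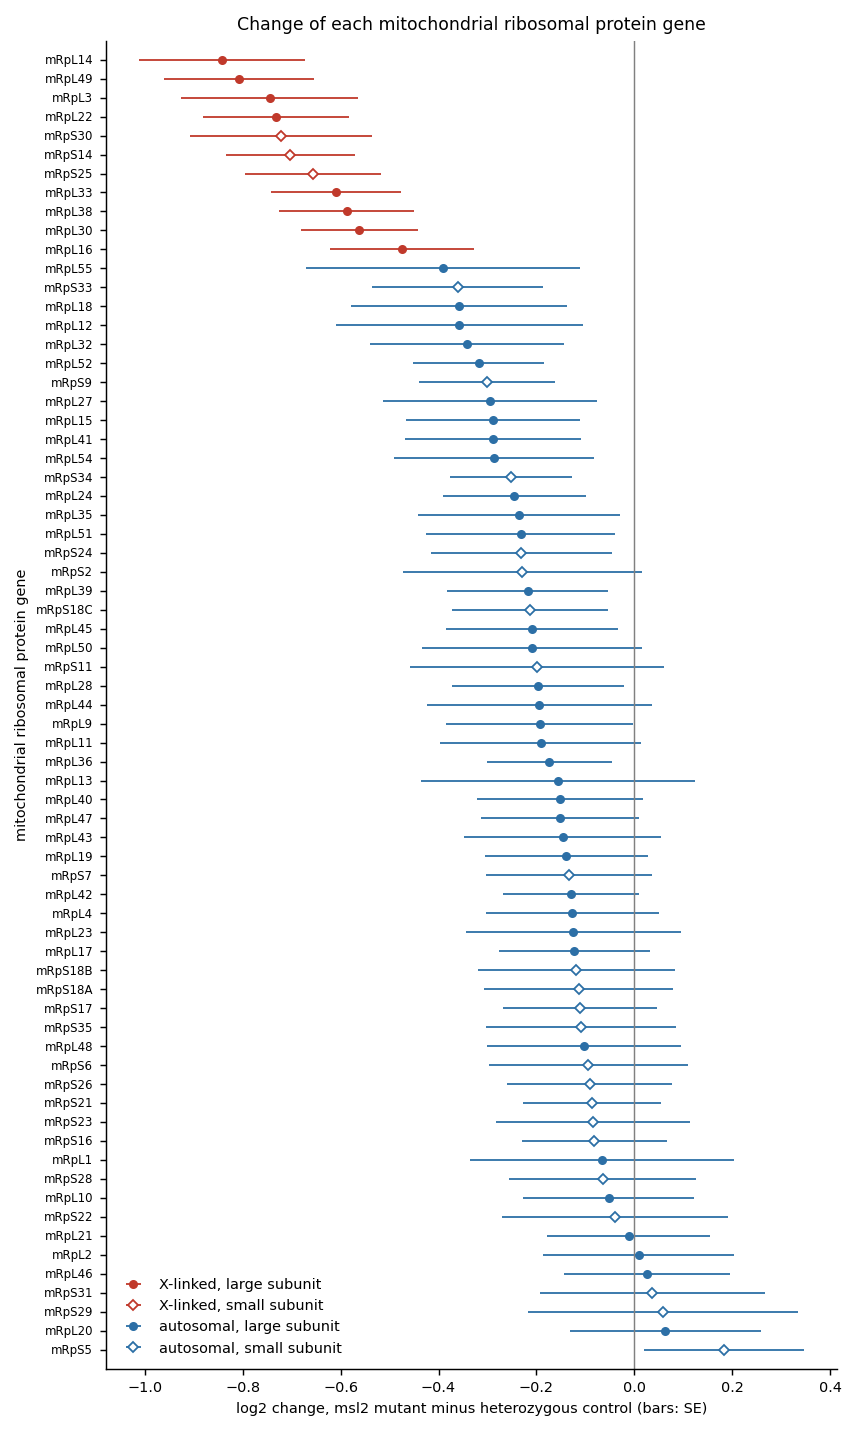
Log2 change of each of the 69 mitochondrial ribosomal protein genes on the horizontal axis (mutant minus control, bars are the SE of the limma fit, 3 arrays per group), with 1 gene per row in order of its change. The 11 X-linked genes lie between -0.84 and -0.47 and the 58 autosomal genes between -0.39 and 0.18, and filled circles and open diamonds mark the large and the small subunit.

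Among the 8 X-linked genes of the large subunit, mRpL14 and mRpL49 had the largest differences. mRpL14, of a ribosomal protein family shared with bacteria, had log2 values of 8.50, 8.08 and 8.54 in the mutant arrays, against 9.17, 9.33 and 9.14 in the control arrays. Its highest mutant value was 0.60 below its lowest control value, the widest gap of any member, and the change was -0.84 (SE 0.17, 95% interval -1.25 to -0.44, limma adjusted p = 0.284). mRpL49, whose family is known from mitochondria and not from bacteria, had 9.12, 8.79 and 9.14 in mutants and 9.90, 9.86 and 9.72 in controls, a change of -0.81 (SE 0.15, limma adjusted p = 0.25). Its gap between the groups was 0.57. In both genes mutant replicate 2 was the lowest array, and the other mutant arrays were still well below every control.

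mRpL3 and mRpL22 belong to families whose bacterial members contact the RNA of the large subunit. mRpL3 had 7.94, 7.43 and 7.69 in mutants and 8.56, 8.50 and 8.24 in controls (change -0.75, SE 0.18, limma adjusted p = 0.351). mRpL22, counterpart of a protein lining the exit tunnel of the nascent chain, had 8.62, 8.32 and 8.52 in mutants and 9.35, 9.22 and 9.08 in controls (change -0.73, SE 0.15, limma adjusted p = 0.285). In each gene mutant replicate 1 was the highest of the mutant arrays and control replicate 3 the lowest of the controls, and they stayed 0.30 and 0.46 apart.

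In mRpL30, mRpL33 and mRpL38 the 3 mutant arrays lay close together. mRpL30 had 9.67, 9.66 and 9.73 in mutants and 10.25, 10.28 and 10.22 in controls, with an SD of 0.03 in each group and a change of -0.56 (SE 0.12, limma adjusted p = 0.31). mRpL38, like mRpL49 a protein of mitochondrial ribosomes without a bacterial counterpart, had 8.10, 8.07 and 8.04 in mutants and 8.80, 8.69 and 8.48 in controls (change -0.59, SE 0.14). mRpL33 had 9.73, 9.61 and 9.78 in mutants and 10.23, 10.44 and 10.28 in controls (change -0.61, SE 0.13). These genes were put together for that closeness, so the small spread of their mutant arrays is no finding about them. Their control arrays spread more in mRpL38 (SD 0.16, against 0.03 in mutants) and mRpL33 (0.11 against 0.08). mRpL16, of the family near the tRNA binding sites of the large subunit, had the smallest change of the X-linked members, with 8.33, 8.63 and 8.49 in mutants and 9.09, 8.93 and 8.84 in controls (change -0.47, SE 0.15, limma adjusted p = 0.491). It was also the X-linked member in which mutant replicate 2 was the highest mutant array.

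The 3 X-linked genes named for the small subunit, mRpS14, mRpS25 and mRpS30, had changes within the range of the large subunit ones. mRpS14, of a family found in all ribosomes, had 8.70, 8.75 and 8.95 in mutants and 9.51, 9.54 and 9.46 in controls (change -0.70, SE 0.13, limma adjusted p = 0.25). mRpS25, a family of mitochondrial ribosomes, had 8.68, 8.36 and 8.57 in mutants and 9.22, 9.18 and 9.18 in controls (change -0.66, SE 0.14, limma adjusted p = 0.31). mRpS30 had 8.67, 8.14 and 8.31 in mutants and 9.24, 9.15 and 8.89 in controls (change -0.72, SE 0.19, limma adjusted p = 0.388). The groups did not overlap in any of them, and mRpS30 came nearest to doing so, with a gap of 0.23. The subunit is read from the symbol here, and in mammals the protein of this name sits in the large subunit.

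**Figure D2:**
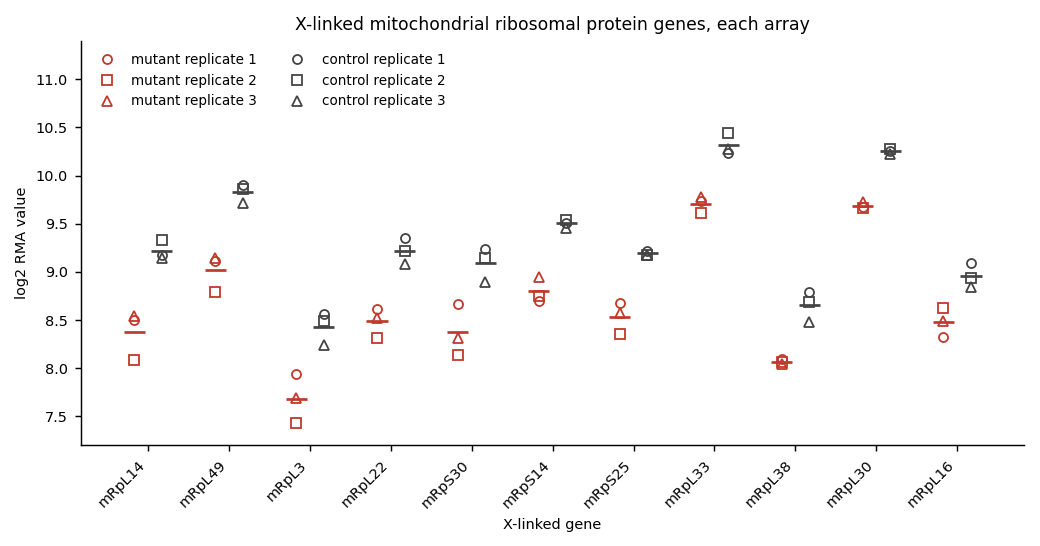
Log2 RMA value of each array (vertical axis) for the 11 X-linked members, with mutant arrays left of control arrays, a marker shape per replicate number and a bar at each group mean. In every gene the 3 mutant points lie below the 3 control points, by 0.21 (mRpL16) to 0.60 (mRpL14) at the nearest.

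The X-linked members also had a lower median than the other X-linked genes of the brighter 50%. In the brighter 50% of gene rows, the other 763 X-linked genes had a median change of -0.27 and the other 5110 genes on 2L, 2R, 3L and 3R one of 0.04. The X-linked members thus lay 0.43 below the other X-linked genes, and the autosomal members 0.19 below the other autosomal genes. With mutant replicate 2 left out, the X-linked members differed from the other X-linked genes by -0.27 and the autosomal members from the other autosomal genes by -0.0008. Of the 774 X-linked rows there, 7.11% had a lower change than the median X-linked member and 23.4% a lower one than mRpL16. Mutant values entirely below control values were found in 11 of 11 X-linked members, against 30% of the X-linked rows of the brighter 50% and 7.29% of all gene rows. A change below 0 was found in 11 of 11, against 82.8% of those X-linked rows.

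X-linked members made up 11 of 69 members (15.9%), about the share of X-linked genes among all rows (15.6%). They are not one neighbourhood: in gene order along the X (RefSeq, Release 6) they fell into 7 of 10 equal parts, with mRpL16 in the first and mRpS14 in the ninth. The nearest measured genes on either side of them came to 22 genes, of which 18 had a change below 0, with a median of -0.20. The 8 of these neighbours in the brighter 50% all had a change below 0, with a median of -0.28. The neighbours of mRpL14 differed from each other, with CG2841 at 0.19 and lncRNA:CR33218 at -0.71, and those of mRpL49 had -0.34 (Brms1) and 0.11 (CG4404, a dim probe set with a mean of 3.37). No neighbouring gene had a change as low as that of the member beside it except CG12693, at -0.65 next to mRpL33 at -0.61.

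Of the autosomal members 52 of 58 had a change below 0, against 44.7% of autosomal rows of the brighter 50%, and the 3 mutant arrays lay on different sides of the controls. Relative to each gene's control mean, their median was 0.10 in mutant replicate 1, -0.48 in mutant replicate 2 and -0.10 in mutant replicate 3, while the control arrays lay at 0.04, 0.04 and -0.07. The other autosomal genes of the brighter 50% had medians of 0.08, 0.12 and -0.07 in the same mutant arrays. The members thus lay near those genes in mutant replicates 1 and 3 and below them in mutant replicate 2. Mutant replicate 2 was the lowest of the 6 arrays in 57 of the 58 autosomal members, and mutant replicate 1 was the highest in 35 of them. Among the 5110 other autosomal genes of the brighter 50%, these counts were 978 and 1666. Mutant values lay entirely below control values in 8 of 58, against 6.11% of autosomal rows of the brighter 50%. They lay entirely above in 0 of 58, against 8.26% of those rows and 6.59% of all gene rows. Without mutant replicate 2 the median change of the autosomal members was 0.01, with 27 of 58 below 0. The autosomal lower mean therefore rests on 1 array, which the plot of values by array shows.

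**Figure D3:**
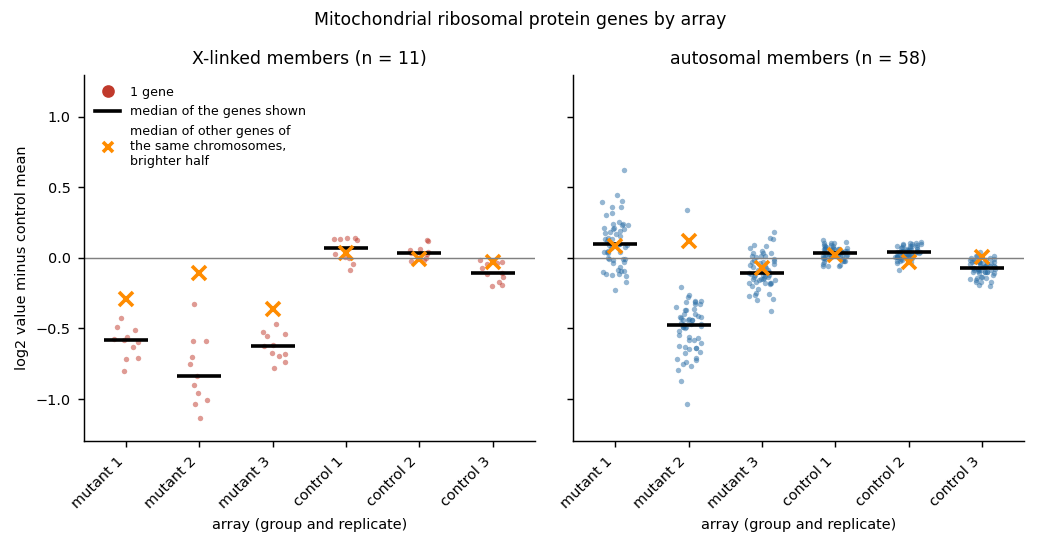
Log2 value minus the gene's control mean (vertical axis) in each of the 6 arrays, for the 11 X-linked members on the left and the 58 autosomal members on the right, with 1 point per gene, a bar at their median and a cross at the median of other genes of the same chromosomes in the brighter 50%. The X-linked bars lie at -0.58, -0.84 and -0.62 in mutants, and the autosomal bars at 0.10, -0.48 and -0.10.

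For the X-linked members the medians were -0.58, -0.84 and -0.62 in the mutant arrays against 0.07, 0.03 and -0.11 in the control arrays, so here all 3 mutant arrays stood apart. Setting X-linked against autosomal members within an array takes out only a shift of the same size in both. The offset of mutant replicate 2 from the mean of the other mutant arrays was not of 1 size. Its median was -0.52 in autosomal and -0.25 in X-linked members. The X-linked minus autosomal median was -0.68, -0.36 and -0.52 in the mutants and 0.04, -0.01 and -0.04 in the controls. The same difference over other genes of the brighter 50% was -0.37, -0.23 and -0.29 in the mutants and 0.01, 0.02 and -0.03 in the controls. It was larger for the members than for the other genes in each of the mutant arrays, and both were smallest in mutant replicate 2. Over the group means, the X-linked minus autosomal difference was -0.55 for the members and -0.31 for the other genes, and without mutant replicate 2 it was -0.61 and -0.34.

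The mutant arrays also differed from each other in RNA quality and in markers of larval age and tissue. Against the mean of mutant replicates 1 and 3, mutant replicate 2 was lower in 57 of 58 autosomal members (median -0.52, from -0.97 for mRpL55 to 0.23 for mRpS5). It was lower in 10 of 11 X-linked members (median -0.25, with mRpL16 at 0.22), while 46.7% of all gene rows were lower there. Mutant replicate 2 had the smallest difference between 3' and 5' probe sets and mutant replicate 1 the largest, where a small difference goes with intact RNA. In the glue and fat body genes mutant replicate 1 had by far the lowest. The mean difference between 3' and 5' probe sets of 3 fly control transcripts was 1.69, 0.68 and 1.29 in the mutant arrays, against 1.35, 1.22 and 1.32 in the control arrays. The markers could be measured for 7 of 7 glue, 3 of 6 fat body, 10 of 10 testis, 3 of 6 muscle and 6 of 7 proliferation genes. The median of the salivary glue genes, which come on late in larval life, was -6.80, 0.72 and 0.14 in the mutants relative to the control mean. That of the fat body genes was -1.97, 1.15 and 0.28, that of the testis genes -0.92, -0.01 and -0.77, that of the body wall muscle genes -0.22, -0.34 and -0.22 and that of the proliferation genes 0.10, 0.50 and 0.02. Summed on the linear scale, the glue genes ranged between 2767 and 79980 in mutants and between 41740 and 61390 in controls, and the proliferation genes between 1128 and 1561 in mutants and between 1077 and 1142 in controls. The testis genes summed to between 2312 and 5445 in mutants and between 4253 and 5186 in controls, the fat body genes to between 4374 and 40400 in mutants and between 17300 and 28420 in controls, and the muscle genes to between 15120 and 15530 in mutants and between 16380 and 18860 in controls. No marker was at 0 on this scale, and the part of any of these in the members' values was not tested. In whole larvae a smaller amount of a tissue and less RNA per cell cannot be told apart.

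With mutant replicate 2 left out, 7 of the 69 members were lower in limma's test, and all 7 are X-linked. They were mRpL49 (adjusted p = 0.0289), mRpL14 (0.0295), mRpS14 (0.0323), mRpL22 (0.0373), mRpS25 (0.0376), mRpL30 (0.0386) and mRpL33 (0.0457). The other 4 X-linked members had limma adjusted p values between 0.0508 (mRpL38) and 0.0776 (mRpS30). In that fit 7.91% of all gene rows and 13% of X-linked rows were lower and 2.8% of all gene rows higher, and 0 of 58 autosomal members passed. The median X-linked change was -0.61 there, and the SE of mRpL14, for example, was 0.13 in place of 0.17. Leaving out any other array gave 0 members past the threshold. With arrays weighted by their fit, the weights of mutant replicates 1, 2 and 3 were 0.415, 0.175 and 3.15. Mutant replicate 2 thus had the lowest weight, and the mutant means rested mostly on mutant replicate 3. All 11 X-linked members were then lower, with limma adjusted p between 0.0141 and 0.034, and 0 autosomal members passed. Many more of all gene rows were also called in this fit than in the unweighted one, with the counts given in the section on processing. The share of X-linked rows among them is not given, so these calls cannot be set against those of other X-linked genes.

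**Figure D4:**
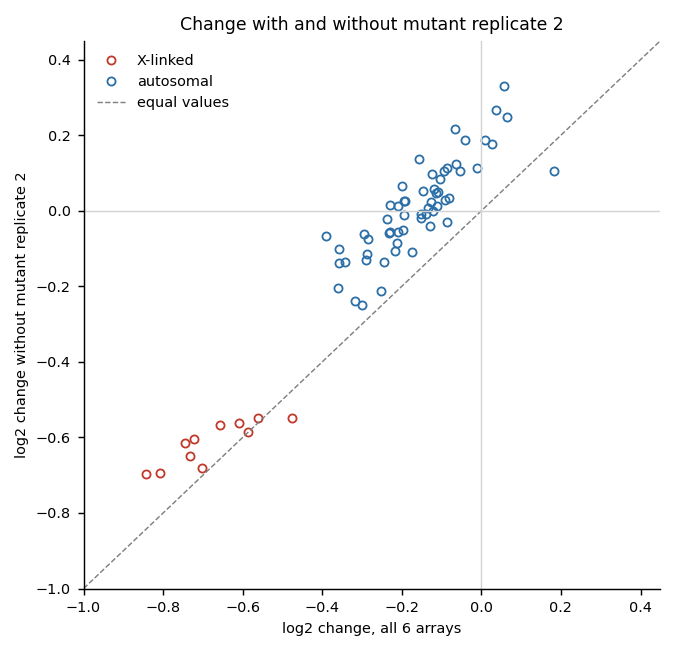
Log2 change of each member without mutant replicate 2 (vertical axis) against the change over all 6 arrays (horizontal axis), with X-linked and autosomal members in separate colours and a dashed line where both are equal. The X-linked members lie between -0.70 and -0.55 on the vertical axis, and the autosomal members have a median of 0.01 there.

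Of the 8 autosomal members with the most negative changes, 4 had groups that overlapped. mRpL55 (3R), a mitochondrial family without a bacterial counterpart, had 9.84, 8.80 and 9.70 in mutants and 9.92, 9.84 and 9.75 in controls. Its change of -0.39 (SE 0.28, limma adjusted p = 0.682) was -0.07 without mutant replicate 2. mRpL12 (3L), counterpart of the stalk protein that recruits translation factors, had 10.24, 9.27 and 9.85 in mutants and 10.18, 10.25 and 10.00 in controls, and its change of -0.36 (SE 0.25) was -0.10 without that array. mRpL18 (2R) had 8.70, 7.91 and 8.44 in mutants and 8.75, 8.80 and 8.57 in controls, with -0.36 (SE 0.22) over all arrays and -0.14 without mutant replicate 2. mRpL27 (2L), of a family at the site of peptide bond formation, had 9.88, 9.13 and 9.79 in mutants and 9.90, 9.95 and 9.83 in controls, with -0.30 (SE 0.22) over all arrays and -0.06 without it. In all 4 genes mutant replicate 1 lay close to the controls.

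The other 4 of these autosomal genes had mutant values entirely below the controls, by small margins. mRpS9 (3R), of a family found in all ribosomes, had 9.88, 9.60 and 9.63 in mutants and 10.03, 10.06 and 9.92 in controls (change -0.30, SE 0.14, limma adjusted p = 0.601), and -0.25 without mutant replicate 2. mRpL52 (2R), a mitochondrial family, had 9.34, 9.09 and 9.31 in mutants and 9.59, 9.58 and 9.52 in controls (change -0.32, SE 0.13, limma adjusted p = 0.585). It had the smallest p of the autosomal members, with a 95% interval from -0.64 to 0.0002, and a change of -0.24 without mutant replicate 2. mRpS33 (3R) had 9.10, 8.54 and 8.92 in mutants and 9.26, 9.22 and 9.15 in controls (change -0.36, SE 0.17, limma adjusted p = 0.612), with -0.20 without it. mRpL32 (3R) had 8.95, 8.31 and 8.91 in mutants and 9.09, 9.08 and 9.03 in controls (change -0.34, SE 0.20), with -0.14 without it. Without mutant replicate 2 the lowest autosomal change was -0.25 (mRpS9) and the highest X-linked one -0.55.

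At the other end, 6 autosomal members had a change above 0. mRpS5 (3L), of a family that helps the small subunit read accurately, had 10.52, 10.54 and 10.10 in mutants and 10.25, 10.18 and 10.19 in controls (change 0.18, SE 0.16, limma adjusted p = 0.753). It was the autosomal member in which mutant replicate 2 was not the lowest array and in fact was the highest. mRpS29 (2R), the fly counterpart of the GTP-binding mammalian protein DAP3, had 9.20, 8.08 and 8.61 in mutants and 8.60, 8.62 and 8.50 in controls. Its mean change of 0.06 (SE 0.28) thus joins mutant arrays on both sides of all controls. mRpL20 (3L) had 9.43, 8.77 and 9.20 in mutants and 9.16, 9.05 and 9.00 in controls (change 0.06, SE 0.19), and mRpS31 (3L) had 9.62, 8.75 and 9.26 in mutants and 9.23, 9.22 and 9.07 in controls (change 0.04, SE 0.23). Without mutant replicate 1, mRpS29, mRpL20 and mRpS31 were at -0.23, -0.09 and -0.17, so that their sign depends on the array.

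The remaining autosomal members lay between. The 3 members with the strongest probe set signals were mRpL28 at -0.20, mRpL47 at -0.15 and mRpS7 at -0.13, and of the 3 with the weakest, mRpL3 is X-linked (-0.75) and the autosomal mRpL40 and mRpL11 were at -0.15 and -0.19. Medians by chromosome arm were -0.15 for the 12 members on 2L, -0.14 for the 10 on 2R, -0.11 for the 17 on 3L and -0.19 for the 19 on 3R. Without mutant replicate 2 they were 0.02, -0.01, 0.05 and -0.02. The medians of these arms lay nearer to each other than to that of the X.

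Over all members the median change was -0.21 for the 44 large subunit genes and -0.11 for the 25 small subunit genes, with 41 and 22 below 0. The medians were -0.05 and 0.03 without mutant replicate 2, with 29 of 44 and 9 of 25 below 0. X-linked genes make up 18.2% of the large and 12% of the small subunit genes. Among autosomal members the medians were -0.19 for 36 large and -0.11 for 22 small subunit genes, a difference of -0.08, and of -0.06 without mutant replicate 2. Among X-linked members the medians were -0.67 for 8 large and -0.70 for 3 small subunit genes. By array, the autosomal large minus small difference was -0.09, -0.09 and 0.01 in the mutants and 0.01, 0.00 and -0.03 in the controls, so that mutant replicate 3 lay among the controls. No test was made of a difference between the subunits.

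Genes for mitochondrial ribosomal proteins under other symbols were set beside the members, as were the genes that the ribosome works with. The X-linked tko, which encodes the fly's mitochondrial S12 protein and is known for its bang-sensitive mutants, had 9.35, 9.05 and 9.32 in mutants and 9.83, 9.90 and 9.75 in controls. Its change of -0.58 (SE 0.14, 95% interval -0.92 to -0.24, limma adjusted p = 0.355) lies within the range of the X-linked members, and its groups did not overlap. bonsai (2R), counterpart of S15, had 9.86, 9.21 and 9.58 in mutants and 9.92, 9.96 and 9.73 in controls (change -0.32, SE 0.19), and -0.15 without mutant replicate 2. The choice by symbol did not include this pair.

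Lists of other genes of mitochondrial gene expression hold between 0 and 2 X-linked genes each, and no gene in them passed the test. Of 19 assembly and translation factors, 14 had a change below 0 (median -0.06), against 49.4% of all gene rows, with mRRF1, a ribosome recycling factor, at -0.33, the elongation factor mEFTu2 at -0.34 and the transcription termination factor mTTF at -0.19. Of 15 mitochondrial aminoacyl-tRNA synthetases, which load tRNAs with amino acids, 9 were below 0 (median -0.03), with TrpRS-m at -0.32, AspRS-m at -0.18 and PheRS-m at -0.08. Of 12 genes for the replication and transcription of mitochondrial DNA, 5 were below 0 (median 0.10), with the polymerase PolG1 at 0.37, the DNA packaging factor TFAM at 0.15 and the transcription factor mtTFB2 at -0.12. Each of these lists was, like the autosomal members, lower in mutant replicate 2 than in the mean of the other mutant arrays, with medians of -0.35, -0.46 and -0.39. Of 8 regulators of mitochondrial gene expression, 4 were below 0 (median 0.01), with foxo at 0.71 (SE 0.31), the X-linked kinase gene Pink1 at -0.36 and the receptor gene ERR at -0.15. The other X-linked genes of these lists, named for their chromosome, were MTPAP at -0.14, Lrpprc2 at -0.20 and ewg at -0.0032.

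In lists with more X-linked genes, no gene passed over all 6 arrays. Among 21 genes of mitochondrial import and chaperones, 18 were below 0 (median -0.20), and the smallest p values belonged to the X-linked Tim9a (-0.86, SE 0.16), Tim8 (-0.65, SE 0.13) and ttm50 (-0.43, SE 0.21), which act in moving proteins across or into the inner membrane. In the fit without mutant replicate 2, limma called 4 genes of this list lower, the X-linked Tim9a (adjusted p = 0.0273) and Tim8 (adjusted p = 0.0285) and the autosomal Tim17b1 (-1.06, adjusted p = 0.0272) and Tim13 (-1.18, adjusted p = 0.0309). In that fit 7.91% of all gene rows and 13% of X-linked rows were lower. The autosomal pair, named after their values were seen, had changes of -0.63 (SE 0.38) and -0.73 (SE 0.40) over all arrays. Tim17b1 had 6.85, 8.33 and 7.19 in the mutants, and Tim13 had 5.76, 7.18 and 5.93. In both, mutant replicates 1 and 3 lay below every control and mutant replicate 2 did not. The related Tim17b was at -0.0042 over all arrays. The 62 genes of the respiratory chain and ATP synthase, which work with the proteins that mitochondrial ribosomes make, had medians of -0.57 for 11 X-linked and -0.23 for 51 autosomal genes. The smallest p values belonged to ND-ASHI (-0.76), UQCR-14 (-0.61) and ND-B18 (-0.63), all X-linked. Without mutant replicate 2 limma called 5 X-linked and 4 autosomal genes of the list lower, against 7.91% of all gene rows. The 4 autosomal genes, named after their values were seen, were COX7AL, ND-20L, ND-24L and COX6AL. In each of them, as in the median of the testis markers, mutant replicate 2 was the highest mutant array. A link between these was not tested. The X-linked minus autosomal difference of the list was -0.35, against -0.55 in the mitochondrial ribosome. The median of the 51 autosomal genes of that list was -0.14, -0.34 and -0.18 in the mutant arrays, against 0.04, 0.03 and -0.06 in the controls, with 41, 45 and 48 of the 51 below their control mean in the mutants. The median of the autosomal mitochondrial ribosomal genes was below 0 in mutant replicates 2 and 3 and above it in mutant replicate 1.

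**Figure D5:**
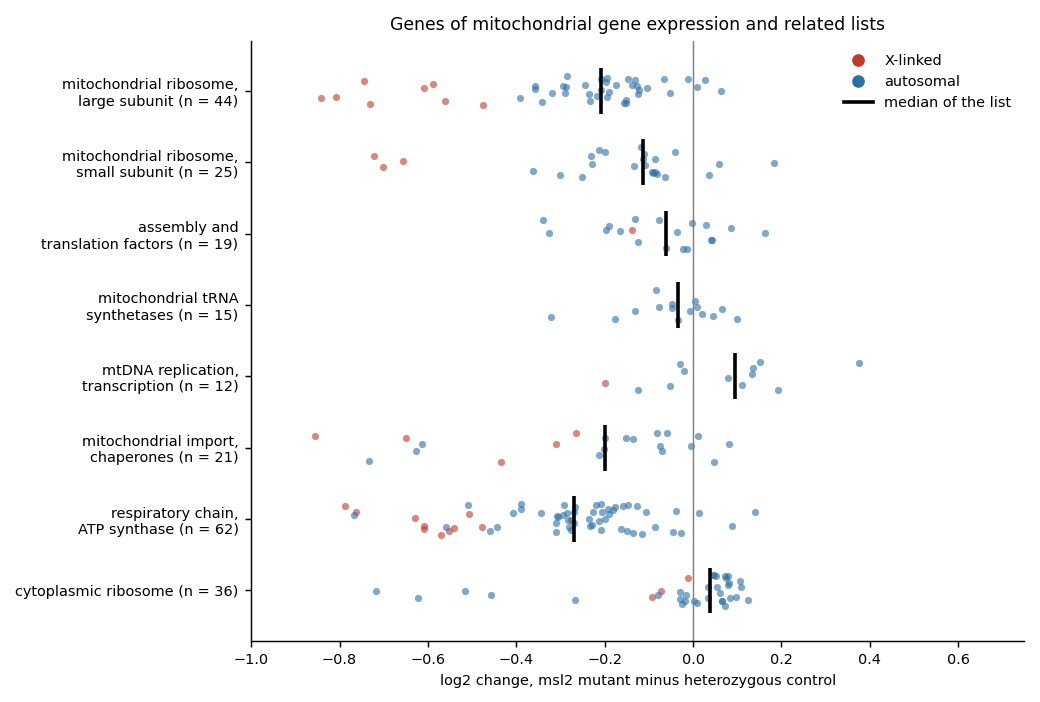
Log2 change (mutant minus control, horizontal axis) of every gene in 8 lists, with X-linked and autosomal genes in separate colours and a bar at each list's median. Bars lie at -0.21 and -0.11 for the large and small mitochondrial subunits, whose X-linked points lie left of all their autosomal points, and at 0.04 for the cytoplasmic ribosome.

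The cytoplasmic ribosome is built from a separate set of proteins and translates the nuclear messages. Its 36 genes with a probe set of their own had a median change of 0.04, with 14 below 0. The 3 X-linked ones had a median of -0.07, with changes between -0.09 and -0.01, against 0.05 for 33 autosomal ones, a difference of -0.12. Their probe sets were far brighter than those of the members, with mean log2 values of 13.59 (RpS28b), 13.29 (RpL17) and 13.42 (RpL37-1). The brightest member had 10.64. Whether differences are smaller at such strong signals was not tested. The X-linked ones had medians by array of -0.04, -0.08 and -0.05 in the mutants and -0.01, -0.02 and -0.01 in the controls. The smallest p values in the list belonged to autosomal genes that are second copies of ribosomal protein genes, RpL37-2 at -0.62, RpS19b at -0.52 and RpS10a at -0.46. Only 3 X-linked genes enter this comparison, and the difference between the lists was not tested.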

How the data were processed

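RNA of 6 pools of male larvae was measured on Affymetrix Drosophila Genome arrays, 3 per genotype, with groups and replicate numbers taken from the sample titles. Each probe set has a log2 value per array, deposited after RMA by the authors, per the labels, a method that subtracts background, equalizes the arrays and combines probes. The submitters' processing notes name GCOS 1.4. Which RMA program was used is not given in the sources here. RMA shrinks differences of weak probe sets, and precision is set by having 3 arrays a group.

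Of 18952 probe sets, 13646 have 1 gene symbol in the platform annotation, 402 have several, 4721 are unnamed here and 183 are controls. The brightest single-gene probe set per gene left 11982 gene rows. Gene symbols came from the platform annotation. Chromosome arms, gene order and further names for matching the lists came from a RefSeq table of assembly Release 6 plus ISO1 MT, where 13543 of the 13646 were found. No coordinates are given, since the deposited values name no build.

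Differences (mutant minus control) were tested over all gene rows with limma 3.58.1 in R 4.3.3 (lmFit, eBayes, two-sided, Benjamini-Hochberg, threshold 0.05), which was tested on simulated data. Figures used Python 3.11.15 and matplotlib 3.10.9. Members and lists were chosen with earlier results of these data known, so lists are described by counts and medians without tests. Named genes are all X-linked members, the 8 most negative and 4 most positive autosomal members, the 4 smallest p, the 3 strongest and 3 weakest signals, and the 3 smallest p of each list. Neighbouring genes were named for their position, and CG12693, CG2841 and CG4404 among them after their values were seen. Alternatives were leaving out each array, a replicate block, array weights, another prior, other scalings, a filter on dim genes and the mean over probe sets.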

Additional observations from a re-analysis of the deposited data

How the results depend on the processing

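The X-linked members had a change below 0 under every alternative tried. Leaving out 1 array at a time moved their median between -0.73 and -0.61, that of all members between -0.31 and -0.02, of the large subunit between -0.35 and -0.05, of the small subunit between -0.27 and 0.028, and of autosomal members between -0.29 and 0.0092, each time lowest without mutant replicate 1 and highest without mutant replicate 2. Members below 0 ranged between 38 and 68, and those with non-overlapping lower values between 19 and 41, the latter without mutant replicate 1. Groups of 2 and 3 arrays separate more easily than groups of 3 and 3. Without the share of all gene rows for these settings, the rise to 41 cannot be read as a trait of the members. Members called lower by limma ranged between 0 and 7. Over all genes the counts ranged between 0 and 335 higher and between 0 and 948 lower. With array weights (0.415, 0.175 and 3.15 for mutant replicates 1, 2 and 3) 441 of 11982 gene rows were higher and 1012 lower. Among the lower ones were 11 members, all X-linked, and mRpS5 was at -0.029. Lower genes numbered 0 with the replicate block, 1 with a trended robust prior and 0 in the brighter 50% of rows. Same-numbered arrays did not deviate together (correlations 0.19, -0.27 and 0.11), so the numbers give no pairing, and no member passed under the block. A total of 25 members, all autosomal, turned from below to above 0 without mutant replicate 2. Among the members named in the text, signs turned with an array left out for mRpS31 (-0.17 without mutant replicate 1, -0.0155 without control replicate 3), mRpS29 (-0.23) and mRpL20 (-0.086) without mutant replicate 1, and mRpL11 (0.027) and mRpS7 (0.0068) without mutant replicate 2. Without mutant replicate 2, mRpS31, mRpS29 and mRpL20 were at 0.27, 0.33 and 0.25. The causes were not tested. No autosomal member passed the test in any of these fits, which had only 2 or 3 arrays in a group.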

Other observations

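The probe sets shared by a member and another gene were left out above. The one for mRpL53 and CG33155 had 10.00, 9.81 and 9.88 in the mutants and 10.10, 10.14 and 10.12 in the controls, a change of -0.23. The one for mRpS10 and CG34316 had 9.35, 8.51 and 8.85 in the mutants and 9.03, 8.96 and 8.91 in the controls, a change of -0.06, with mutant replicates 1 and 2 on opposite sides of the controls as in most autosomal members.

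mRpS11 and mRpL47 have a second probe set of their own. For mRpS11 the brighter one gave -0.20 and the other -0.25, and for mRpL47 the brighter one gave -0.15 and the other -0.06, so both pairs have the same sign.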
